A study of Mus musculus with 4 samples.

Results

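Prg4 synovial lining fibroblasts were examined in 4 single-cell RNA libraries of mouse P3 digits. A barcode was kept when it had 200 to 5500 genes, at most 30000 UMIs and at most 10% of UMIs from mitochondrial genes, and it was a member when at least 1 UMI was seen in 3 or more of 5 genes, Prg4, Htra4, Col22a1, Clic5 and Fbln7. In all, 3184 of 93602 kept cells were members, 986 of 19827 in the LNR library, 1137 of 20669 in the LNR control library, 584 of 29076 in the SAR131675 diet library and 477 of 24030 in the diet control library. All 4 libraries came from female mice, C57BL/6 in the labels and C57BL/6J in the methods, aged 6 to 8 weeks, and every library pooled digits from 10 mice. The LNR library is from limbs with lymph node removal, and its control is labelled as untreated and called a sham in the design of the series. The study took the opposite limb of the operated mice as sham, so the LNR pair may come from the same mice. The SAR131675 diet library is from mice fed an inhibitor of VEGFR3, the receptor that drives lymphatic growth, at 30 mg per kg of chow, and its control is from mice on a matched diet. The series design gives 8 days of this chow and the methods a start 5 days ahead of amputation with no stop, so its length is uncertain. The study's text puts the SAR131675 pair at 8 days after amputation and a figure legend at 5 days, so that day is uncertain too. For LNR digits a supplementary legend gives 8 days. The methods describe amputation of P3 on hind limb digits 2 and 4, and digits 2 to 4 were cut off through the second phalanx, so the tissue held the last joint of the toe. Digit 3, by these methods not amputated, may be in every pool, so part of the members may be from uninjured digits.

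The synovium is the inner membrane of joints and tendon sheaths. Its lining is a thin sheet of fibroblasts and macrophages facing the joint fluid, over a sublining of vessels, nerves and looser fibroblasts. Lining fibroblasts secrete lubricin, the product of Prg4, and hyaluronan, and these keep cartilage surfaces wet and low in friction. Among the other genes of the rule, Htra4 encodes a serine protease, Col22a1 a collagen found at tissue junctions, Clic5 a protein bound to the actin skeleton beneath the membrane, and Fbln7 a fibulin of the extracellular matrix.

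RefSeq promoters on GRCm38.p6 were at hand for 5 of 8 genes searched, and the 250 bases before the start are printed for 2 genes of the rule, Clic5 and Fbln7, and for Tspan15, a lining gene that the rule did not use. Clic5 lies on the plus strand at chr17:44188322-44188571, Fbln7 on the plus strand at chr2:128863682-128863931, and Tspan15 on the minus strand at chr10:62231219-62231468. Each is written 5′ to 3′ on the strand of the gene, and capitals mark the only match to the motifs searched on both strands, an AP-1 site (TGANTCA) that ends 6 bases before the Tspan15 start. That motif was found in 6.75% of 32851 promoters of this length, and these 3 windows held no TATA box (TATAAA, in 12.4% of promoters), no cyclic AMP element (TGACGTCA, 1.55%), no SOX motif (AACAAT, 9.42%) and no FOX motif (GTAAACA, 3.17%). These matches describe letters and not binding.
Clic5: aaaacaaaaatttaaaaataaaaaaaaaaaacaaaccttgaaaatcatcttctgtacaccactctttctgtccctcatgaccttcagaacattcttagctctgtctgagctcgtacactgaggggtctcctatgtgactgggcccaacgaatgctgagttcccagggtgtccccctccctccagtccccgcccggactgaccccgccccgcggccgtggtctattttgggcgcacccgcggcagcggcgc
Fbln7: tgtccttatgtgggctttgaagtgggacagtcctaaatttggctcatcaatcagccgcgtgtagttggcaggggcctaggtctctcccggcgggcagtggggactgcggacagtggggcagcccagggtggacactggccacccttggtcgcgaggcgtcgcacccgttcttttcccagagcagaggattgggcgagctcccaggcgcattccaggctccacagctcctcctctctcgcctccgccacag
Tspan15: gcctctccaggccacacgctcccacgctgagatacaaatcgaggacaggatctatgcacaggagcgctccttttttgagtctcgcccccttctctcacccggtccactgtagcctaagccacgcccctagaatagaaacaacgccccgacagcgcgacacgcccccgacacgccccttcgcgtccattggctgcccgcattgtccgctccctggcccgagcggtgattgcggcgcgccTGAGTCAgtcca

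Each condition was 1 library and each library its own batch, so a treatment and its batch cannot be told apart. Conditions were therefore compared without a test. Members had a median of 8104 UMIs in LNR, 8684 in the LNR control, 14702.5 in SAR131675 and 13276 in the diet control, against 5725, 5851, 11316 and 10712 in all kept cells. The files of the LNR pair name Cell Ranger 6.1.2 and those of the SAR131675 pair 8.0.1, so conditions were compared within a pair. Kept barcodes were shared by 101 cells of the LNR pair and 210 of the SAR131675 pair, and 1 member barcode was among them. Intervals on counts and shares are at 95% and cover counting error only.

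Members carried Prg4 at a very high level. Prg4 stood at 101144 CPM of the summed UMIs of members in LNR, 82262 in the LNR control, 112326 in SAR131675 and 115105 in the diet control, against 325 to 858 CPM in other fibroblasts. Of the Prg4 UMIs in the kept cells of each library, 90.9% to 94.0% were in members. The cells were chosen by a UMI of these 5 genes, so their levels are a description without a test. Members varied widely among themselves. The median member gave 7.06% of its UMIs to Prg4 in LNR, 6.33% in the LNR control, 5.35% in SAR131675 and 6.22% in the diet control, and the highest member 39.9%, 42.4%, 37.7% and 53.2%. Prg4 took over 10% of UMIs in 36.1% to 39.6% of members and under 1% in 18.0% to 28.1%. A Prg4 UMI was also seen in 22.6% to 37.0% of all kept cells. In cells with keratinocyte markers it was seen in 19.0% to 29.6%, at 38.6 to 46.9 CPM. A single Prg4 UMI thus did not set members apart. The median depth of those keratinocyte-marked cells was 8137 to 12786.5 UMIs. The source of the Prg4 UMIs outside members was not tested.

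The other genes of the rule were found in fewer members. Htra4 had a UMI in 92.8% to 95.1% of members, Clic5 in 79.1% to 85.3%, Fbln7 in 77.7% to 86.3% and Col22a1 in 58.2% to 66.6%. Fbln7 was the least restricted, with 66.9% to 70.3% of its UMIs in kept cells held by members. All 5 genes were found in 479, 493, 279 and 243 members of LNR, LNR control, SAR131675 and diet control.

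At the limit of the rule, cells with 3 genes gave 1.97% of their UMIs to Prg4 in LNR, 1.33% in the LNR control, 0.816% in SAR131675 and 0.863% in the diet control, and cells with 2 genes, just outside it, gave 0.242%, 0.279%, 0.164% and 0.357%. Cells with all 5 gave 13.4% to 17.5%. Hbegf, a membrane-anchored growth factor of the EGF family and no gene of the rule, followed the same steps, at 56.0 to 76.9 CPM with 2 genes, 104 to 322 with 3 and 1490 to 2235 with 5. Thy1, a surface protein of sublining fibroblasts, ran the other way, at 90.1 to 156 CPM with 2 genes, 55.9 to 104 with 3 and 3.8 to 15.1 with 5. The cells with 3 genes were thus between the 2-gene and 5-gene cells for both, in all 4 libraries. Not every gene did so. The lining gene Itga6 gave 233, 159 and 690 CPM with 2, 3 and 5 genes in SAR131675 and 209, 165 and 791 in the diet control. It rose at each step in the LNR pair. Pi16 gave 319, 344 and 48.1 CPM in LNR and fell at each step in the other libraries.

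**Figure D1:**
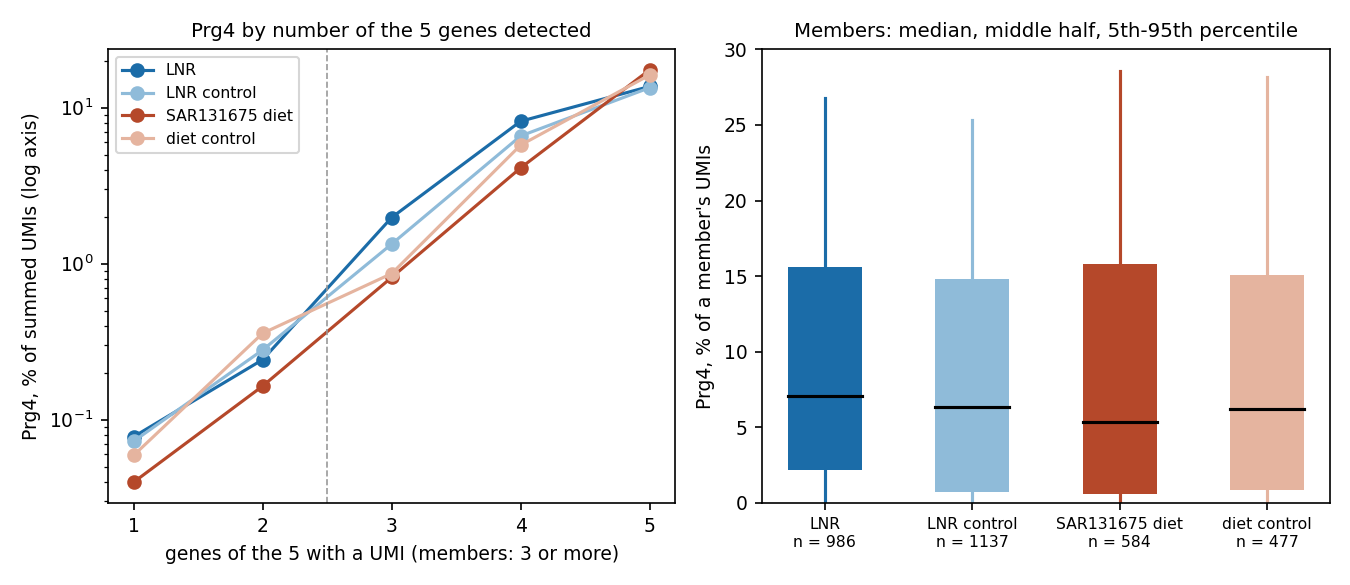
Left, Prg4 as a percent of summed UMIs (log axis) against the number of the 5 genes with a UMI, 1 line a library. Right, Prg4 as a percent of each member's UMIs, with the median (line), the 25th to 75th percentile (box) and the 5th to 95th percentile (bar). The share rises at each step of the rule in every library, and the medians lie between 5.35% and 7.06%.

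At least 3 of 8 fibroblast markers were present in 92.0% to 93.7% of members, against 7.09% to 14.1% of cells with 4 or more keratinocyte markers (median depth 8376 to 12705 UMIs). Their summed level was lower than in other fibroblasts, at 10378, 8203, 15120 and 12280 CPM in members, 26688 to 30094 CPM in other fibroblasts, 920 to 1950 CPM in the keratinocyte-marked cells and 4243 to 7551 CPM in all kept cells. Pdgfra, a receptor found on most fibroblasts, stood at 291, 240, 379 and 431 CPM in members against 371, 351, 433 and 503 in other fibroblasts. Prg4 is counted in the totals, at 82262 to 115105 CPM in members, which lowers the member CPM of every other gene. The stricter limit that defined other fibroblasts, 2 UMIs in 5 of the 8, was met by 51.0%, 53.3%, 68.8% and 62.1% of members. At least 3 chondrocyte markers were found in 8 to 10 members a library, the tendon rule in 9 to 15 and the adventitial rule in 74 to 146. Keratinocyte markers, at least 3 of 6, were found in 25.1% of LNR members, 38.3% of LNR control, 74.1% of SAR131675 and 47.2% of diet control members. The 6 summed to 3241, 7261, 1943 and 1669 CPM in members and to 4222, 6062, 1754 and 1582 CPM in other fibroblasts. Macrophage markers summed to 232, 122, 13.7 and 8.8 CPM and mural markers to 482 to 641 CPM. Doublets were not called, and the part of these cells in the results was not tested except where a value without them is given.

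Members made up 4.97% of kept cells in LNR (95% interval 4.67 to 5.28), 5.50% in the LNR control (5.19 to 5.82), 2.01% in SAR131675 (1.85 to 2.18) and 1.99% in the diet control (1.83 to 2.17). Within the SAR131675 pair the log2 ratio of shares was 0.02 (−0.16 to 0.19). Within the LNR pair it was −0.15 (−0.27 to −0.02). After each cell was thinned to 3000 UMIs the shares were 5.35% and 5.35% and the ratio 0.00059 (−0.14 to 0.14). Thinning left out 4474 and 4637 cells under 3000 UMIs. The cells that remained gave 6.1% and 6.86% before they were thinned (log2 ratio −0.17, −0.30 to −0.04). At 4 or more rule genes, with no thinning, the shares were 3.82% and 4.02% (log2 ratio −0.07, −0.22 to 0.07). The part of depth in the gap of this pair was not tested. Among members and other fibroblasts alone the shares of the LNR pair were 16.0% and 19.1% (log2 ratio −0.26, −0.38 to −0.13). A further setting left out members with 2 or more markers of keratinocytes, leukocytes, blood or lymphatic endothelium, mural cells or Schwann cells. These are the classes meant wherever markers of another class are left out. Macrophage, erythroid, chondrocyte, osteoblast, tendon and adventitial markers were not used to leave cells out. In that setting the SAR131675 ratio was −1.67 (−2.25 to −1.11), with shares of 0.127% and 0.404%. With keratinocyte markers not counted it was −0.04, at 1.74% and 1.79%.

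Against other fibroblasts, most lining genes outside the rule were higher in members, and most sublining, collagen and proteoglycan genes were lower. All 16 tested genes of the Wnt pathway list were lower too, while Rspo2, a Wnt agonist of the lining list, was higher. Of 15730 genes tested in edgeR on UMIs summed per library and class, with the library as a block, 3760 were higher in members (23.9%) and 3455 lower (22.0%) at an adjusted p under 0.05. Without the block 790 were higher and 979 lower. Libraries were the replicates, n = 4, and cells were not. If the LNR pair shares mice, 2 of the 4 are not independent, and without the LNR control library 3328 genes were higher and 3243 lower.

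Of 15 lining genes outside the rule, 10 rose and 3 fell, with a median log2 fold change of 1.87 against −0.00 over all genes tested, and the counts were also 10 and 3 without the block. The gene lists were chosen with earlier results of these data known. Their counts, here and below, describe these data and are no independent check. Tspan15, a tetraspanin that carries the sheddase ADAM10 to the cell surface, stood at 191, 136, 167 and 221 CPM in members of LNR, LNR control, SAR131675 and diet control and at 2.84, 2.67, 4.08 and 3.35 CPM in other fibroblasts. The groups were far apart, with a log2 fold change of 6.01 (SE 0.13, edgeR adjusted p = 2.4e-07). Hbegf stood at 1716, 1298, 995 and 1519 CPM against 46.5, 44.8, 22.7 and 18.5, a log2 fold change of 5.70 (SE 0.26). It had a UMI in 80.9%, 81.5%, 69.0% and 73.2% of members. The lowest member sum, in SAR131675, was still above every other fibroblast sum. Tmem196, a membrane protein, gave 77.4, 69.4, 165 and 157 CPM against under 1 CPM in each library (log2 fold change 7.89, SE 0.19). The integrin chains Itgb8 and Itga6, which bind matrix and latent TGF beta or laminin, rose by 3.00 and 2.96 on the log2 scale.

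Cd55, a complement-decay protein long used as a lining marker, stood at 687, 511, 948 and 1300 CPM in members against 214, 193, 448 and 463 (log2 fold change 1.65, SE 0.09). Every member sum was above every other sum, with 511 CPM in the LNR control nearest to 463 CPM of other fibroblasts in the diet control. Rspo2, a Wnt agonist, rose by 2.55, Sema5a, a guidance cue, by 1.96, and the transcription factors Creb5 and Foxo1 by 1.87 and 1.77 on the log2 scale. Not all of the list rose. Pdpn, podoplanin, gave 39.3 to 55.8 CPM against 47.5 to 71.6 and Aqp1, a water channel, 193, 158, 184 and 218 CPM against 232, 194, 221 and 235, and neither passed the test. On the log2 scale Vcam1 fell by 0.91, Dkk3 fell by 1.03 and Cdh11 fell by 2.34. Cdh11 encodes the cadherin that joins lining cells to each other, and stood at 16.2 to 50.9 CPM in members against 107 to 311 CPM.

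Of 12 sublining genes none rose and 9 fell, with a median log2 fold change of −1.24, and 7 fell without the block. Thy1 stood at 23.2, 29.6, 29.4 and 23.2 CPM in members and 259, 230, 315 and 365 CPM in other fibroblasts, with no overlap (log2 fold change −3.20, SE 0.14, edgeR adjusted p = 2.8e-06). On the log2 scale Cd34, a sialomucin of adventitial cells, fell by 2.82 and Clec3b, tetranectin, fell by 2.34. Cxcl12, the ligand of CXCR4, gave 917, 616, 1094 and 943 CPM against 934, 837, 880 and 825, and Comp, a cartilage and tendon matrix protein, 556, 435, 776 and 560 CPM against 937, 866, 534 and 505. Both overlapped and neither gene passed the test, but at 4 or more rule genes Comp fell by 1.11.

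**Figure D2:**
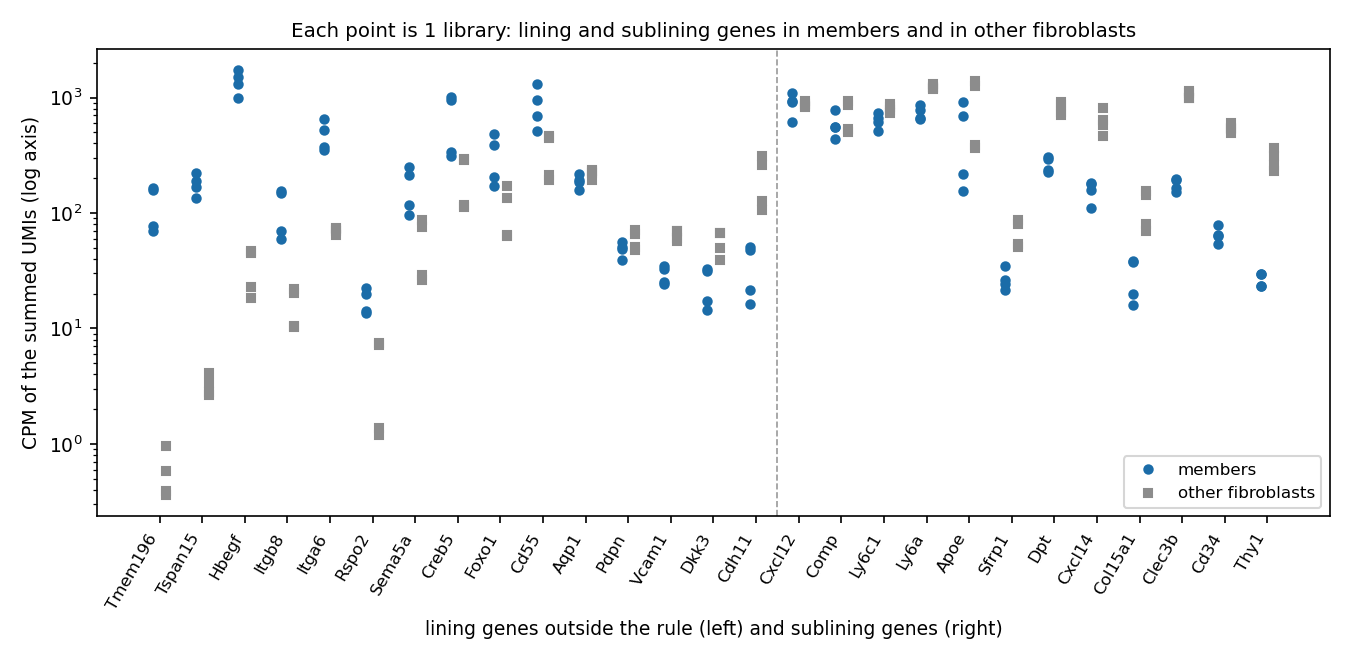
CPM of summed UMIs (log axis) in members (blue circles) and other fibroblasts (grey squares), 1 point a library, for lining genes outside the rule (left of the line) and sublining genes (right). Tspan15 and Hbegf stand more than 10 times apart in every library, Pdpn and Aqp1 overlap, and Thy1 lies below the other fibroblasts in all 4 libraries.

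The genes of hyaluronan supply were moved in members. Of 12 tested, 8 rose and 2 fell (median log2 fold change 0.89), and 6 rose and 2 fell without the block. Has1 and Has2 encode hyaluronan synthases and went opposite ways. Has1 stood at 669, 503, 366 and 400 CPM in members against 171, 167, 82.2 and 126 CPM in other fibroblasts, a log2 fold change of 2.08 (SE 0.10). Has2 stood at 14.5, 14.8, 27.3 and 20.7 CPM against 77.0, 70.9, 98.8 and 102, a log2 fold change of −1.95 (SE 0.10). The groups did not overlap for either. Ugp2 and Ugdh make the UDP-glucuronate from which hyaluronan is built. Ugp2 gave 494, 375, 960 and 903 CPM against 120, 111, 257 and 232 (log2 fold change 2.16, SE 0.07), and Ugdh 438, 346, 532 and 711 CPM against 242, 237, 343 and 367 (log2 fold change 0.99, SE 0.08). Cemip and Cemip2, which cut hyaluronan, rose by 2.48 and 2.64 on the log2 scale, and Cd44, its receptor, by 0.79. Tnfaip6, which loads heavy chains onto hyaluronan, fell by 0.97.

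Genes of joint development were split, 7 higher and 5 lower of 14 (median log2 fold change 0.62), and 4 and 3 without the block. Chondrocyte markers rose in 2 of 5 and fell in none (median 0.60). They summed to 30.5 to 119 CPM in members against 45.7 to 65.8 CPM in other fibroblasts, and their part in these values was not tested. Gdf5, the growth factor that marks the embryonic joint interzone, was low in members and nearly absent in other fibroblasts. It stood at 6.94, 5.48, 8.93 and 8.67 CPM in members and 0.163, 0.274, 0.094 and 0.12 CPM in other fibroblasts (log2 fold change 5.76, SE 0.35). Barx1, a homeobox factor, stood at 20.5, 17.7, 26.4 and 35.8 CPM against 1.57, 2.23, 3.12 and 2.69 (log2 fold change 3.61, SE 0.16). Sox5, a cofactor of Sox9 in cartilage, gave 175, 145, 1065 and 1057 CPM against 11.4, 12.3, 132 and 155, so that levels differed between the 2 pairs of libraries in both classes, and members were higher in each library (log2 fold change 3.53, SE 0.18). Sox9, Erg and Foxc1 rose by 1.16, 1.48 and 1.60 on the log2 scale. The Wnt ligand Wnt9a fell by 1.32, Wnt16 fell by 1.45 and the transcription factor Osr1 fell by 1.52.

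Matrix genes were mostly lower, with fibronectin as an exception. Osteoblast markers were lower too, in 5 of 5 (median log2 fold change −1.39), and summed to 116 to 306 CPM in members against 339 to 699 CPM in other fibroblasts. Their part in the matrix, Wnt and BMP values was not tested. The 8 genes that chose the other fibroblasts were left out of these counts. Of 13 collagen genes tested, 1 rose and 10 fell (median log2 fold change −1.56), and of 19 proteoglycans and matrix glycoproteins 1 rose and 16 fell (median −1.28). Among members that also met the fibroblast limit the counts were 1 and 10, and 1 and 12. Fn1, fibronectin, stood at 6287, 4291, 6775 and 6939 CPM in members against 1360, 1228, 1540 and 1706 CPM (log2 fold change 2.28, SE 0.09, edgeR adjusted p = 1.5e-06). Postn, periostin, stood at 101, 87.2, 98.6 and 86.3 CPM against 1039, 886, 1237 and 1027 (log2 fold change −3.24, SE 0.07). On the log2 scale Eln, elastin, fell by 3.05, Fbn1, fibrillin, fell by 2.92 and Vcan, versican, fell by 2.52. Of the fibril-associated collagens Col14a1 fell by 2.36 and Col12a1 fell by 2.28, and the basement membrane collagen Col4a2 rose by 0.39. Matrix enzymes fell as well, 13 of 15 metalloproteinases and inhibitors, or 6 without the block, and 1 rose. That gene was Adamts5, an aggrecanase, at 667, 613, 831 and 952 CPM against 241, 204, 284 and 287 (log2 fold change 1.82, SE 0.06). Mmp13, a collagenase, fell by 2.78, Mmp2, a gelatinase, fell by 1.64 and Timp3, an inhibitor, fell by 1.87. Among cathepsins and cystatins, 6 of 10 rose and none fell, or 2 without the block. Cst3, cystatin C, gave 5775, 4520, 5465 and 4048 CPM against 3227, 2955, 2027 and 1866 (log2 fold change 1.24, SE 0.14) and Ctsl, a lysosomal protease, rose by 1.08.

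Signalling genes were mainly lower in members. All 16 Wnt pathway genes tested fell (median log2 fold change −2.16), and 13 without the block. Dkk2, a Wnt antagonist, stood at 21.1, 14.7, 28.1 and 17.0 CPM against 219, 203, 329 and 320 (log2 fold change −3.47, SE 0.13), Wnt5a at 14.2, 19.1, 19.8 and 13.1 CPM against 147, 127, 186 and 168 (log2 fold change −2.98, SE 0.13), and Axin2, a Wnt target, fell by 1.68. Rspo2, counted among lining genes, rose as given above. Of 22 BMP and TGF beta genes 4 rose and 16 fell, or 0 and 9 without the block. On the log2 scale Bmp4 fell by 2.48 and Inhba, an activin subunit, rose by 0.99. Of 20 cytokine and chemokine genes 1 rose and 16 fell, or 0 and 5 without the block. The neutrophil chemokine Cxcl2 rose by 1.17, though 43.8% to 99.1% of its UMIs were in 5 members of each library, while the eosinophil chemokine Ccl11 fell by 3.46, the interleukin 1 receptor Il1r1 fell by 2.05 and Il6 fell by 1.32. Of 12 complement genes 9 fell and none rose, among them C3 by 2.77.

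Ligands and receptors of vessels fell in 10 of 16 cases and rose in 2 (median log2 fold change −0.89), or 8 and 1 without the block. Vegfc, the ligand of VEGFR3, stood at 7.38, 6.35, 27.4 and 21.1 CPM in members against 16.3, 15.7, 51.0 and 69.2 (log2 fold change −1.01, SE 0.13), and Vegfd, the other ligand of that receptor, at 11.8, 12.8, 13.5 and 14.8 CPM against 29.6, 26.8, 45.4 and 46.6 (log2 fold change −1.21, SE 0.11). In each library members had the lower value. Vegfa fell by 1.78 and Angpt1, a ligand of TIE2, fell by 2.54. Of the semaphorins, which guide axons and vessels, Sema3d stood at 193, 182, 233 and 439 CPM against 54.5, 49.5, 117 and 90.3 (log2 fold change 1.99, SE 0.18), and Sema3a rose by 1.68, a call lost without the block. Sema3c gave 205, 169, 261 and 313 CPM against 183, 180, 356 and 305, overlapped and did not pass the test.

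The study's list of lymphatic genes held Clic5, a gene of the rule, and Pcsk6, a proprotein convertase, and Sema3d. Pcsk6 stood at 780, 663, 624 and 779 CPM in members against 44.3, 45.0, 46.4 and 58.7 CPM in other fibroblasts, with no overlap (log2 fold change 4.11, SE 0.08, edgeR adjusted p = 2.2e-07). Of 29 genes of that list tested, Pcsk6 and Sema3d among them, 12 rose and 6 fell against other fibroblasts, and at 4 or more rule genes 3 rose and 8 fell. The study chose that list for lymphatic vessels. The 6 lymphatic endothelial markers fixed here summed to 86.0, 153, 93.6 and 124 CPM in members, 41.2 to 60.9 CPM in other fibroblasts and 143 to 197 CPM in all kept cells. Against other fibroblasts 5 of the 6 passed the test, Ccl21a by 1.92 on the log2 scale with 87.9% to 98.6% of its UMIs in 5 members of each library, while at 4 or more rule genes none rose and 1 fell, and without the block 1 rose. The 5 blood endothelial markers gave 5 higher, and 0 at 4 or more rule genes and 0 without the block.

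Of 18 limb transcription factors 2 rose and 9 fell against other fibroblasts (median log2 fold change −0.55), or 0 and 7 without the block. Hoxd13, a gene of the distal limb, stood at 50.3, 38.3, 62.6 and 77.4 CPM against 66.2, 56.1, 77.3 and 83.0 and overlapped, with a log2 fold change of −0.10 (SE 0.08), and of 0.29 among cells between the 25th and 75th percentile of member depth, where it passed. On the log2 scale Twist2 fell by 2.92, Shox2 fell by 2.95 and Prrx2 fell by 2.28. In the hypoxia and glycolysis list 12 of 16 rose and 1 fell (median 0.41), and without the block 2 rose, with Bnip3, a mitophagy receptor, up by 0.95 and Gapdh by 0.77. Enpp1, which makes the mineral inhibitor pyrophosphate, stood at 50.7, 39.4, 92.2 and 85.9 CPM against 22.8, 21.0, 26.9 and 28.4 (log2 fold change 1.61, SE 0.15). Of 6 genes tested of a mineral list 1 rose and 1 fell. That list was drawn for mineral inhibition but also holds the osteoblast marker Alpl, so its counts are not of inhibitors alone. Of 12 cell cycle genes none passed the test in edgeR (median −0.05), and 2 of 18 immediate early and dissociation stress genes rose and 2 fell. Of 12 interferon response genes 3 rose and 4 fell. Rgs5, a mural cell marker, rose by 1.62 on the log2 scale, and the other 4 mural markers fell. Srgn, the leukocyte proteoglycan serglycin, rose by 2.58 and was the leukocyte marker of 5 that passed. Among the genes named, the calls of Cd44, Sox5, Sox9, Erg, Wnt9a, Col4a2, Cst3, Mmp13, Inhba, Cxcl2, Il6, Vegfc, Sema3a and Gapdh were lost without the block.

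**Figure D3:**
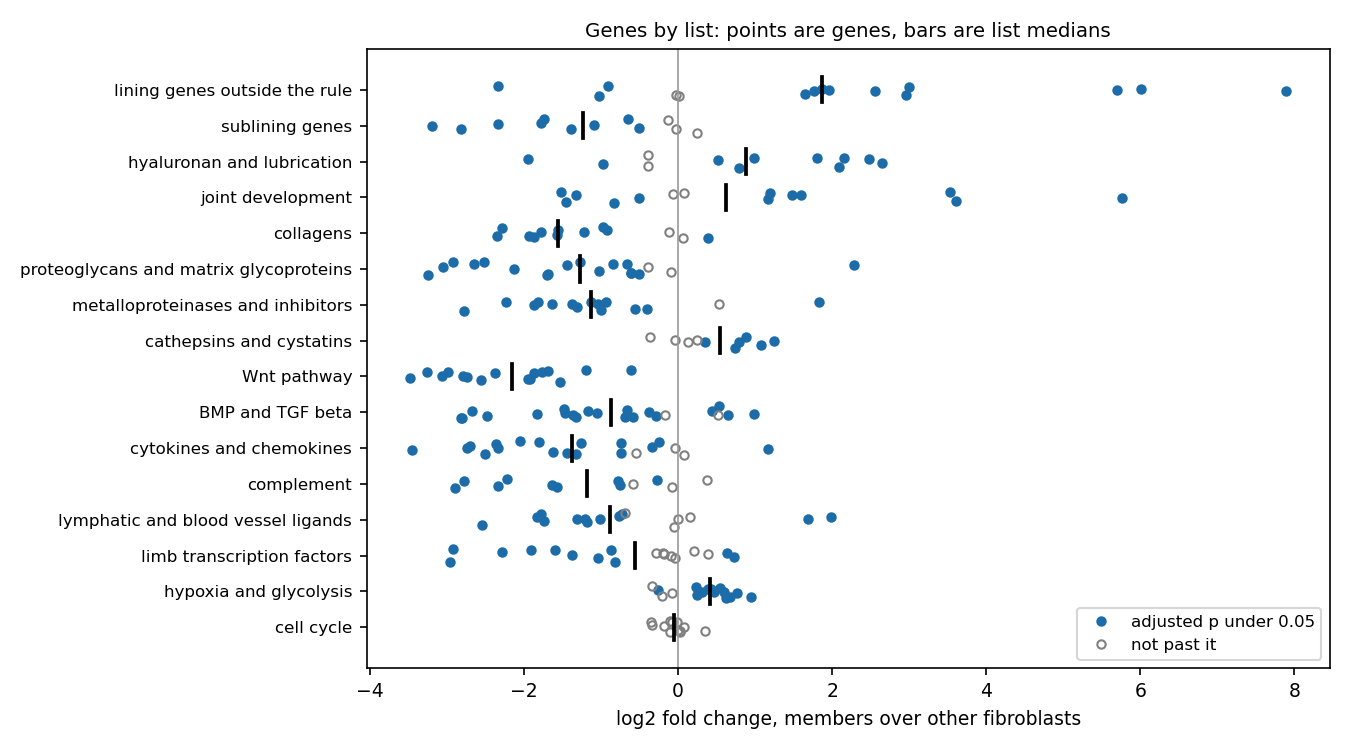
Log2 fold change of members over other fibroblasts (x axis) for the genes of 16 lists (y axis), with filled points past an adjusted p of 0.05 and black bars at list medians. Lining (1.87) and hyaluronan (0.89) medians lie above 0, and Wnt (−2.16) and collagen (−1.56) medians below it.

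Outside the lists, the genes with the highest log2 fold changes included Pla1a, a phospholipase that makes lysophosphatidylserine, at 275, 215, 424 and 384 CPM in members and 4.41, 3.39, 3.89 and 4.06 CPM in other fibroblasts (log2 fold change 6.58, SE 0.17). Rab37, a secretory GTPase, gave 76.6, 54.7, 44.1 and 86.4 CPM against 0.915, 0.548, 0.448 and 0.389 (log2 fold change 7.05, SE 0.18). Megf10, a receptor for engulfing apoptotic cells, gave 95.6, 83.5, 294 and 270 CPM against 1.86, 1.88, 5.97 and 2.84 (log2 fold change 6.1, SE 0.18). These 3 were picked for the highest fold changes with 1 sign in every library, so their gaps are a description. Gchfr, a regulator of tetrahydrobiopterin synthesis, rose by 6.06, the connexin Gja3 by 6.39 and Apobec2 by 7.23. At the other end, Colec10, a lectin of the complement system, and Fgfr4, a growth factor receptor, were lower, with log2 fold changes of −4.10 and −4.07 and at most 1.04 CPM of either in members.

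Tendon fibroblasts, 750 cells with at least 3 of Tnmd, Scx, Mkx, Kera and Fmod, differed from members in matrix, lining and Wnt genes. Of 12408 genes tested 1570 were higher in members (12.7%) and 1553 lower (12.5%), or 464 and 562 without the block, and 985 were higher without the diet control library. Collagens fell in 15 of 18 and rose in none (median log2 fold change −1.47), and proteoglycans and matrix glycoproteins fell in 18 of 20 (median −2.14). Thbs4, a thrombospondin of tendon, stood at 38.3, 24.9, 39.5 and 42.4 CPM in members against 1341, 1226, 712 and 1172 CPM in tendon fibroblasts (log2 fold change −4.79, SE 0.25). Col12a1 fell by 4.16, and Comp fell by 1.81 and stood at 1698 to 2646 CPM in tendon fibroblasts. Fn1 rose by 2.59. Angptl7, a secreted matrix regulator, stood at 107, 81.8, 206 and 303 CPM against 3156, 3010, 742 and 3706 (log2 fold change −3.80, SE 0.55), with SAR131675 the lowest of the tendon sums. Coch, cochlin, fell by 6.64 and Fibin fell by 4.25. Of 14 Wnt pathway genes 10 fell and none rose (median −1.88), and of 13 metalloproteinases and inhibitors 11 fell and 1 rose, with 4 lower without the block.

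Lining genes rose in 10 of 15 against tendon fibroblasts and fell in 4 (median log2 fold change 2.74), or 8 and 2 without the block. Cd55 gave 71.3, 42.5, 199 and 133 CPM in tendon fibroblasts (log2 fold change 3.21, SE 0.19), Tspan15 3.89 to 6.06 CPM (5.38, SE 0.16) and Hbegf 53.0 to 158 CPM (3.95, SE 0.26). Of 11 hyaluronan genes 7 rose and none fell. Has1 rose by 3.21 and Ugdh by 2.45 on the log2 scale, while Has2 stood at 25.9, 24.4, 29.3 and 8.10 CPM in tendon fibroblasts and overlapped with members (log2 fold change −0.07, SE 0.29). Cxcl12 stood at 206, 201, 214 and 189 CPM in tendon fibroblasts and at 616 to 1094 CPM in members, with no overlap (log2 fold change 2.25, SE 0.15). Sox5 rose by 3.95 and Barx1 by 2.80. Of 6 genes of the mineral list, which holds the osteoblast marker Alpl, 5 fell and none rose (median −1.24), or 4 without the block. Markers of other cell types also differed from tendon fibroblasts. Osteoblast markers fell in 3 of 4 (median −1.72), summed to 116 to 306 CPM in members against 293 to 1834 CPM. Blood endothelial markers rose in 5 of 5 (median 1.91). Their part in the mineral, matrix and Wnt values was not tested. Erg, Enpp1 and Cst3 did not pass the test, with log2 fold changes of 0.20 (SE 0.13), 0.08 (SE 0.10) and −0.05 (SE 0.16). Thy1 fell by 2.68. Lrrc34 and Gja3 had no UMI in tendon fibroblasts of any library and were at least 30.3-fold and 18.9-fold higher in members, against a floor of 3 UMIs over the 4 libraries.

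Pi16 Dpp4 adventitial fibroblasts, 7839 cells with at least 3 of Pi16, Dpp4, Sema3c, Ackr3 and Efhd1, are the fibroblasts of vessel sheaths and fascia. The 6 keratinocyte markers summed to 5075, 7283, 7227 and 6031 CPM in these cells, against 3241, 7261, 1943 and 1669 CPM in members. Of the adventitial fibroblasts, 1541 of 1735, 1377 of 1575, 1808 of 2549 and 1534 of 1980 met the fibroblast limit and so were also counted among other fibroblasts. With members and adventitial fibroblasts both held to that limit, 2785 genes were higher and 2341 lower. Of 14415 genes tested 3171 were higher in members (22.0%) and 2565 lower (17.8%), or 915 and 674 without the block. Without the diet control library 1995 were higher and 1681 lower, and without the LNR library 1602 were lower. Lining genes rose in 11 of 15 and fell in 1 (median log2 fold change 1.92), and sublining genes fell in 9 of 12 and rose in 2 (median −0.96). Tspan15 stood at 2.82, 2.46, 2.11 and 1.60 CPM in adventitial fibroblasts (log2 fold change 6.63, SE 0.22, edgeR adjusted p = 9.2e-06) and Hbegf at 29.9, 30.7, 26.3 and 20.9 CPM (5.92, SE 0.20). On the log2 scale Thy1 fell by 3.28, Cd34 fell by 3.20 and Clec3b fell by 2.72. Comp stood at 434, 327, 197 and 222 CPM in adventitial fibroblasts (log2 fold change 1.28, SE 0.30), and at 4 or more rule genes its log2 fold change was 0.20 and no longer passed.

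Against adventitial fibroblasts 7 of 13 genes of joint development rose and 4 fell (median log2 fold change 1.40), or 5 and 3 without the block, and 6 of 11 hyaluronan genes rose and 2 fell (median 0.63), or 4 and 2. Markers of other cell types were higher as well, chondrocyte in 5 of 5 (median 3.33, summed 30.5 to 119 CPM in members against 6.90 to 33.1 CPM), osteoblast in 2 of 3 (median 5.20, summed 116 to 306 CPM against 21.0 to 42.3 CPM) and blood endothelial in 5 of 5 (median 1.00), and their part in these rises was not tested. Cemip stood at 18.3, 14.8, 62.9 and 63.9 CPM in members against 0.968, 0.757, 6.48 and 3.95 (log2 fold change 4.06, SE 0.18), and Cemip2 rose by 3.56. Has1 rose by 1.92 and Has2 fell by 2.21. Gdf5 rose by 7.01, from 0.088, 0.0946, 0.0629 and 0.0434 CPM in adventitial fibroblasts, Barx1 by 4.52 and Erg by 3.10. Enpp1 stood at 12, 8.89, 17.8 and 16.9 CPM in adventitial fibroblasts (log2 fold change 2.51, SE 0.09). In the mineral list, which holds the osteoblast marker Alpl, 4 of 6 genes rose and none fell, or 2 without the block. Cst3 stood at 1449, 1232, 967 and 858 CPM (log2 fold change 2.41, SE 0.15). Cathepsins and cystatins rose in 7 of 10. C3 fell by 2.80 and Wnt5a fell by 2.44. Of 16 Wnt pathway genes 11 fell and 2 rose (median −1.63). In the matrix lists 4 of 18 collagens rose and 9 fell, and 4 of 21 proteoglycans and matrix glycoproteins rose and 7 fell, with a median log2 fold change of −0.00 in the latter.

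**Figure D4:**
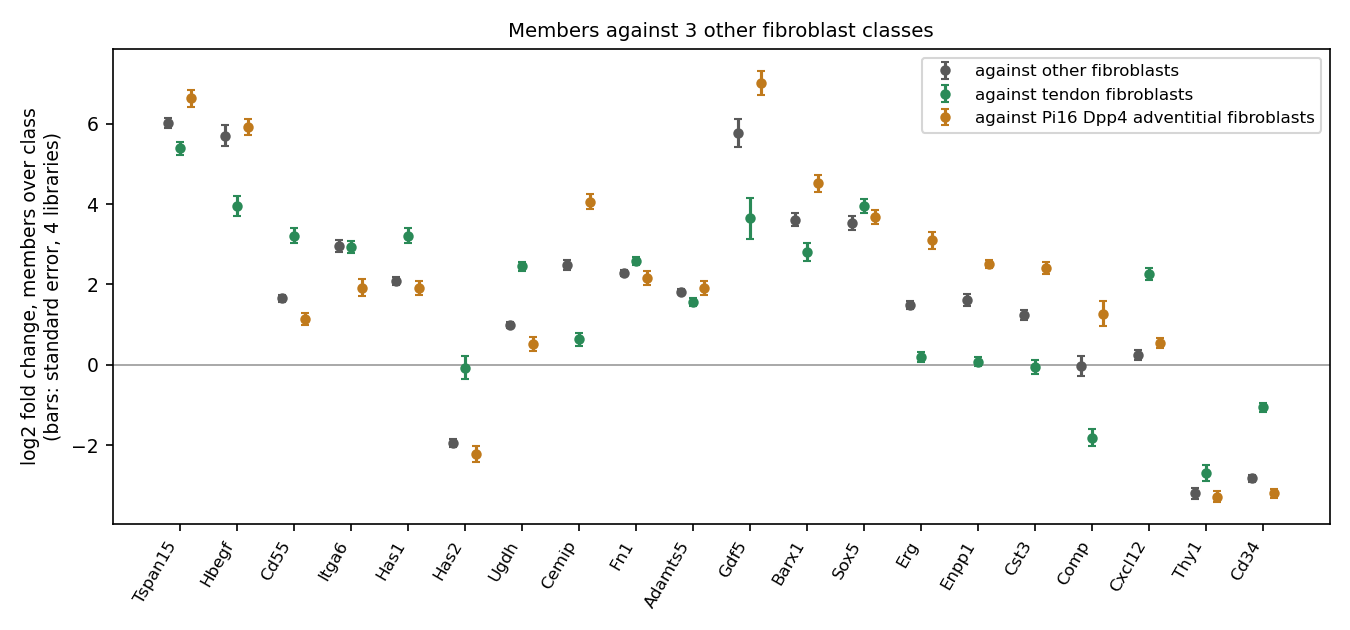
Log2 fold change (y axis, bars are the SE derived from the edgeR fit) of members over other fibroblasts, tendon fibroblasts and Pi16 Dpp4 adventitial fibroblasts for 20 genes of the lists. Tspan15, Hbegf and Fn1 lie above 0 and Thy1 below 0 in all 3, and Comp lies at −1.81 against tendon and 1.28 against adventitial fibroblasts. The classes share cells, since other fibroblasts include tendon and adventitial cells that met the fibroblast limit.

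Within the SAR131675 pair, members gave 8395927 UMIs in the treated library and 6340987 in the control. Of 13449 genes with at least 20 UMIs over the pair, 316 were 2 times or more higher in treated members (2.35%) and 227 as much lower (1.69%). At 4 or more rule genes the balance turned, to 179 higher and 326 lower. Lining genes outside the rule were lower in 11 of 15, with a median log2 ratio of −0.22 against −0.02 over all genes. Hbegf stood at 995 CPM against 1519 in the diet control (log2 ratio −0.61, −0.65 to −0.57) and in other fibroblasts at a log2 ratio of 0.30 (0.15 to 0.44). Sema3d stood at 233 against 439 CPM in members (log2 ratio −0.92, −1.0 to −0.83), with a UMI in 55.0% and 58.3% of them, and at a log2 ratio of 0.37 (0.31 to 0.44) in other fibroblasts. Cd55 and Tspan15 gave −0.46 and −0.40 in members and −0.05 and 0.29 in other fibroblasts. Among the 37 and 97 members without markers of the other classes named above Cd55 gave 0.13. Sublining genes were higher in 11 of 12 (median 0.30), or 7 of 12 at 4 or more rule genes (median 0.08). Gdf5 gave 0.04 (−0.48 to 0.57), Vegfc 0.37 (0.06 to 0.69) and Vegfd −0.14 (−0.55 to 0.27). The lining and sublining genes thus leaned opposite ways in these 2 libraries, and no replicate check exists.

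Markers of other cell types also differed in that pair, and the direction of some lists depended on the setting. Schwann cell markers were higher in treated members in 4 of 4 (median log2 ratio 1.52, summed 62.3 against 16.9 CPM). Erythroid markers were lower in 5 of 5 (−0.82, summed 249 against 377 CPM), but higher in 4 of 5 without upper limits on genes and UMIs (0.44). Lymphatic endothelial markers were lower in 5 of 6 (−0.44), and in 5 of 5 both at 4 or more rule genes (−3.38) and with Prg4 out of the rule (−3.39). They were higher in 6 of 6 without upper limits (0.93), in 5 of 6 by the mean of CPM per cell (0.25) and in 3 of 4 when members were thinned to 3000 UMIs (0.28). Tendon markers were higher in 5 of 5 (0.48), but in 1 of 3 at 4 or more rule genes (−0.82), and keratinocyte markers in 5 of 6 (0.33), but in 3 of 6 without upper limits (0.02). Macrophage markers were higher in 3 of 4 (0.93), in 3 of 4 at 4 or more rule genes (1.79) and in 6 of 6 without upper limits (1.55), but in 2 of 4 by the mean of CPM per cell (−0.08), and 1 member a library carried 3 or more of them. Proteoglycans and matrix glycoproteins were higher in 17 of 21 (0.21) and lower in 15 of 20 at 4 or more rule genes (−0.50). Without the members that carried markers of another class, 8 of 14 lining genes were lower (median −0.12) and 7 of 11 sublining genes higher (median 0.07). Of 12 interferon genes 11 were lower in treated members (median log2 ratio −0.72) and 4 by 2 times or more, and without those members 6 of 8 were lower (median −0.72). Few members carried these UMIs. Ifit1, an antiviral RNA-binding protein, had 31 UMIs in 19 members of SAR131675 and 268 UMIs in 30 members of the diet control, where 5 members held 71.6% of them. Rsad2, viperin, had 12 UMIs in 5 members and 313 in 25, with 84.3% in 5 of those. The log2 ratios were −3.52 for Ifit1 and −5.11 for Rsad2 in members and −0.74 and −0.66 in other fibroblasts. A gene at the upper end of the range was as narrow. Spp1, osteopontin, stood at 465 CPM in SAR131675 and 72.1 in the diet control, and 5 members held 88.6% of the SAR131675 UMIs.

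Within the LNR pair, members gave 9084166 UMIs in LNR and 11490389 in the LNR control. Of 13617 genes 214 were 2 times or more higher in LNR members (1.57%) and 656 as much lower (4.82%), and 100 were lower when members with 2 or more markers of another class were left out. Keratinocyte markers were lower in LNR members, 6 of 6 (median log2 ratio −1.11), and so were lymphatic endothelial markers, 6 of 6 (−0.92, summed 86.0 against 153 CPM), but at 4 or more rule genes those 6 were higher (0.34). In LNR control members 87.9% of the Ccl21a UMIs were in 5 cells. Other markers were higher, macrophage in 6 of 6 (0.83), leukocyte in 5 of 5 (0.65, summed 293 against 189 CPM), erythroid in 4 of 4 (1.77, summed 608 against 180 CPM) and chondrocyte in 5 of 5 (1.09, summed 119 against 30.5 CPM). Schwann markers were higher in 3 of 3 (1.05, summed 49.1 against 15.3 CPM). Osteoblast markers were higher in 3 of 3 (0.74, summed 235 against 116 CPM), but in 1 of 3 without the members that carried markers of another class (−0.27). The numbers of marked members went the other way for erythroid markers, with 3 or more in 1.72% of LNR and 6.16% of LNR control members, and for macrophage markers, in 2.74% and 5.28%. Of the Hbb-bs UMIs of LNR members 88.0% were in 5 cells. Most fibroblast lists also leaned up, fibroblast markers in 8 of 8 (0.37), collagens in 15 of 18 (0.36) and proteoglycans and matrix glycoproteins in 18 of 21 (0.39). Lining genes were among these, higher in 15 of 15 (median 0.30 against 0.00 over all genes), and in 9 of 15 (median 0.07) without the members that carried markers of another class. Hbegf stood at 1716 against 1298 CPM (log2 ratio 0.40, 0.37 to 0.44), Tspan15 at 191 against 136 (0.49, 0.39 to 0.59) and Fn1 at 6287 against 4291 (0.55, 0.53 to 0.57), with 0.05, 0.09 and 0.15 in other fibroblasts. Among members with all 5 rule genes the gaps were smaller, with Hbegf at 2235 against 2043 CPM and Tspan15 at 225 against 206. Members with only 3 rule genes numbered 229 of 986 in LNR and 307 of 1137 in the LNR control. Sublining genes were higher in 9 of 12 (median 0.34), so they did not lean away from the lining genes in this pair. Sema3d gave 0.09 (−0.01 to 0.18).

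Cell cycle genes were lower in LNR members, 12 of 12 (median log2 ratio −0.93), and 5 by 2 times or more. Mki67, a marker of dividing cells, had 218 UMIs in 55 LNR members and 588 UMIs in 183 LNR control members (log2 ratio −1.09, −1.32 to −0.87) and a log2 ratio of −0.21 in other fibroblasts. Top2a, the topoisomerase of replicating cells, gave −1.09 in members and −0.04 in other fibroblasts. Among the members without markers of the other classes named above Top2a gave 1.44, and 4 of the 6 cell cycle genes measured were lower (median −0.18). With members that carried markers of classes other than keratinocytes left out, 10 of the 12 were lower (median −0.44). All 12 interferon genes were higher in LNR members (median 0.73) and 5 by 2 times or more, again from few cells, and without the members that carried markers of another class 7 of 10 were higher (median 0.55). Of 214 Ifit1 UMIs in 38 LNR members 78.0% were in 5 members, and Rsad2 had 209 UMIs in 19 LNR members, 92.3% of them in 5. Col2a1, the cartilage collagen, had 310 UMIs in 9 LNR members and 45 in 11 LNR control members. Krt71, a keratin of the hair root, had 7 UMIs in 3 LNR members and 739 UMIs in 125 LNR control members. These genes stood at a log2 ratio between −0.22 and 0.68 in other fibroblasts.

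**Figure D5:**
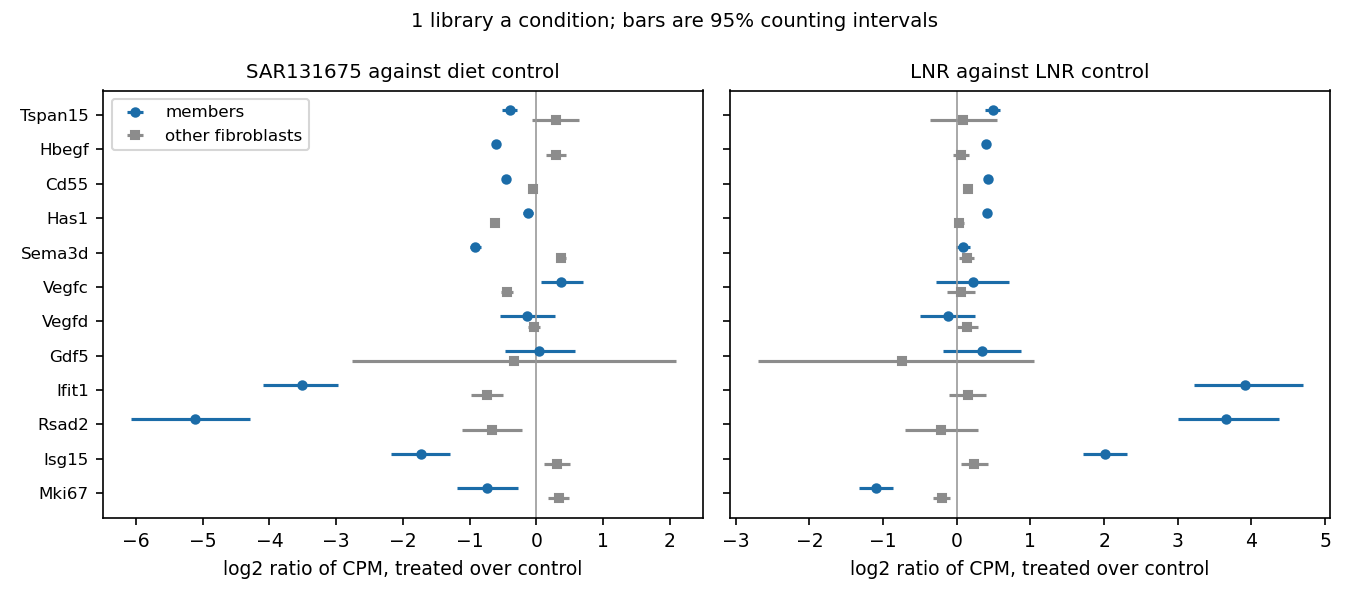
Log2 ratio of CPM, treated over control, in members (blue circles) and other fibroblasts (grey squares) for 12 genes, with 95% counting intervals and 1 library a condition, SAR131675 left and LNR right. Hbegf lies at −0.61 and 0.40 in members, Ifit1 and Rsad2 lie farthest from 0 with opposite signs in the 2 pairs, and other fibroblasts stay nearer to 0 for those genes.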

How the data were processed

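Raw UMI counts per gene and barcode, over 33696 genes, were deposited by the authors for 4 libraries of the 10x 3′ assay. The submitters' notes name Cell Ranger 6.1.2 and GRCm39, and the file headers name 6.1.2 for the LNR pair and 8.0.1 for the SAR131675 pair. Depth was 168507188 to 585284877 UMIs and 21669 to 38464 barcodes a library, with none under 500 UMIs in LNR. The cell limits are those the study states for LNR, used for both pairs. The limits, members and gene lists were chosen with earlier results of these data known.

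UMIs were summed per library and class and fitted in edgeR 4.0.16 (R 4.3.3, quasi-likelihood, TMM, filterByExpr) with the library as a block, and p was adjusted by Benjamini-Hochberg over all genes tested. The 2 sums of a library share its mice, and their deviations correlated at 0.819 to 0.918. The highest correlation with another library was 0.655 to 0.869, and it was above that within the library for SAR131675 against tendon (0.869 over 0.842) and adventitial fibroblasts (0.847 over 0.819). Genes that chose either class were left out of counts. On simulated counts the fit against other fibroblasts recovered 100% of 100 genes changed 2-fold and 48% of 100 changed 1.5-fold, over 15743 genes. Against tendon fibroblasts it recovered 92% and 44%, and against adventitial fibroblasts 100% and 45%. Only genes with many UMIs were changed, and the simulated spread was a fixed setting not taken from these data. Recovery for genes with few UMIs was not tested. DESeq2 1.42.0 was an alternative. Python 3.11.15 with numpy 2.4.6, scipy 1.17.1, pandas 2.3.3 and matplotlib 3.10.9 was used elsewhere. Each SE is the absolute log2 fold change over the square root of the edgeR F statistic, and not a spread between libraries. CPM scales the counts of a sum to its total UMIs, with Prg4 included. The edgeR fold changes use TMM, so they can differ from ratios of CPM. Shares carry exact binomial (Clopper-Pearson) intervals and ratios exact conditional ones. Other fibroblasts were 17339 kept cells, not members, with 2 UMIs in 5 of 8 genes (Col1a1, Col1a2, Col3a1, Col6a1, Col6a2, Dcn, Lum, Pdgfra). Tendon and adventitial fibroblasts that met this limit were also counted among other fibroblasts. The comparisons with these classes are therefore not separate.

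Genes named are those of the lists and, outside them, the 12 highest and 8 lowest log2 fold changes past the threshold per class, with 1 sign in every library and 200 UMIs, and the 5 highest and 5 lowest ratios per pair with 100 UMIs. The alternatives were another tool, no low-count filter, no block, each library left out, stricter or looser membership, equal depth, and removal of cells with markers of other classes. Some genes that this rule names are not reported here, and other cell types were not analysed here.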

Additional observations from a re-analysis of the deposited data

Results flagged for a closer look

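Barcodes outside the cell limits were not used in the main comparisons, but some met the gene rule. Those over the upper limits entered only the setting without upper limits. Over the upper limits on genes or UMIs, 30 barcodes in LNR, 46 in the LNR control, 187 in SAR131675 and 113 in the diet control had 3 or more of the 5 genes. Over the mitochondrial limit, 29, 23, 7 and 5 did so. With the upper limits removed, members were 4.99%, 5.58%, 2.18% and 2.08% of cells, and 485 genes were 2 times or more higher in SAR131675 members in place of 316.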

How the results depend on the processing

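Against other fibroblasts, the counts of higher and lower genes were 3474 and 2947 in DESeq2 and 3363 and 3993 with no low-count filter, and ran from 2757 to 3328 and 2879 to 3243 when each library was left out in turn. Without the replicate block they were 790 and 979 against other fibroblasts, 464 and 562 against tendon and 915 and 674 against adventitial fibroblasts. Against tendon fibroblasts 2566 genes were higher with no low-count filter, with more genes tested, and 618 higher and 692 lower without cells carrying markers of another class, and 1041 higher between the 25th and 75th percentile of member depth. Leaving out each library gave 985 to 1300 higher and 1154 to 1453 lower against tendon, and 1995 to 2985 and 1602 to 2763 against adventitial fibroblasts. Among values of named genes against the classes under an alternative, 1744 kept direction and side of the threshold, 36 no longer passed, 16 newly passed, and Hoxd13 turned to 0.29 between those percentiles.

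Genes 2 times or more higher in SAR131675 members were 179 at 4 or more rule genes, 209 without markers of another class, 135 with 50 UMIs over the pair, 485 without upper limits and 188 with Prg4 out of the rule. Lower genes were 412, without markers of another class, 86 with 50 UMIs and 374 by the mean of CPM per cell. In the LNR pair, 87 were higher with 50 UMIs, and lower ones were 425 at 4 or more rule genes, 100 without markers of another class, 193 with keratinocytes not counted and 413 with Prg4 out of the rule. Without markers of another class Top2a turned to 1.44 in the LNR pair and Cd55 to 0.13 in the SAR131675 pair, and without upper limits Mki67 turned to 0.30 in the latter. The cause was not tested.

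Shares in LNR, LNR control, SAR131675 and diet control were 3.82%, 4.02%, 1.37% and 1.47% at 4 or more genes, 10.1%, 10.4%, 6.23% and 5.37% at 2 or more, 4.55%, 4.77%, 1.76% and 1.73% with Clic5 out, 2.35%, 2.21%, 0.127% and 0.404% without markers of another class, 16.0%, 19.1%, 12.8% and 12.5% of members and other fibroblasts, and, for LNR, SAR131675 and diet control, 5.35%, 1.64% and 1.69% at 3000 UMIs. Without upper limits SAR131675 gave 2.18%. Unthinned cells of 3000 UMIs or more gave 6.1% in LNR and 6.86% in its control, an alternative added after seeing the data. Chosen after the data were seen, they were 3.83%, 4.03%, 1.38% and 1.47% with Prg4 out, 4.21%, 4.18%, 1.74% and 1.79% with keratinocytes not counted among other classes, and 7.42%, 7.69%, 2.86% and 4.04% of cells with under 2 keratinocyte markers. The log2 ratio of the SAR131675 pair was 0.22 at 2 or more genes, −1.67 without markers of another class and −0.50 among cells with under 2 keratinocyte markers. That of the LNR pair turned to 0.00059 at 3000 UMIs, 0.091 without markers of another class and 0.012 with keratinocytes not counted, and was −0.26 among members and other fibroblasts and −0.17 among unthinned cells of 3000 UMIs or more. The alternatives with Prg4 out of the rule, keratinocytes not counted and members within the fibroblast limit were likewise chosen after seeing the data.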
